A study of Rattus norvegicus with 77 samples.

Results

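Decorin and 9 other connective tissue matrix genes were described on arrays of rat sperm RNA. The genes were chosen by name, with earlier results of these data known: Dcn (decorin), Bgn (biglycan), Lum (lumican), Fn1 (fibronectin), Sparc, Mgp (matrix Gla protein), Col1a1, Col1a2, Col3a1 and Vim (vimentin). For each, the probe sets (the probes of 1 transcript) whose only gene symbol in the platform annotation was that gene were taken. All 10 were found, each with 1 probe set, among 29214 probe sets on the array, of which 15310 carried 1 symbol and named 14506 genes. Values are log2 intensities, on which a difference of 1 is a doubling.

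All rats were of the Fischer 344 strain, with 1 array per rat. The 19 HD rats drank water with 0.33% 2,5-hexanedione (HD), a toxicant of Sertoli cells, for 3 months, and the 20 water rats drank water alone for that time. The 20 HD-recovery and 18 water-recovery rats had the same 3 months of HD or of water and then 3 months without HD. Time after exposure and greater age go together within each arm, while HD-recovery and water-recovery rats followed the same schedule. Sperm of every group came from punctured cauda epididymides and passed through a lysis buffer for somatic cells before RNA was extracted. The study reports that microscopy found no somatic cells in the sperm and that peaks of ribosomal RNA were absent. The cauda also holds fibroblasts, vessels, blood and immune cells. On arrays of bulk RNA, fewer cells of a type and less RNA per cell cannot be told apart.

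The groups are given by their labels. On these arrays the study gives the opposite direction for HD against water over nearly its whole list of altered transcripts, Dcn, Vim, Clu and Lyz2 included. Its qRT-PCR compared separate rats after 3 months of HD with rats at the start, not with water rats at 3 months. There Dcn and Vim have the direction found here from the labels, but neither is marked as significant. Of the transcripts marked as near significance, Lyz2 also has the direction by label, while Tcp10b, Styxl1 and Sil1 have that of the study's own arrays. Every transcript marked as significant at 3 months, Clu included, has the direction of the study's own arrays. The study states that most transcripts responded alike by both methods. The direction by label was thus not settled by that source, whose significant transcripts go with the study's arrays. Dcn, Vim, Clu and Lyz2 were among the candidates the study chose on these samples, so that their differences here are not independent evidence. Every difference below is the arrays labelled HD less the arrays labelled water, or as stated. Array medians ran from 6.51 to 6.78 over the 77 arrays. By correlation with the rest of their group, 10 arrays stood apart (4 HD, 1 water, 3 HD-recovery and 2 water-recovery), and all were kept. The mean of 21 sperm and spermatid markers lay between 9.29 (water-recovery) and 9.59 (HD) in the 4 groups. Over the whole array, 138 of 29214 probe sets (0.472%) differed between HD and water at a q-value under 0.05 in limma, the call used throughout, and 133 of them were lower in arrays labelled HD. The array has no zero level and levels of different probe sets were not ranked against each other.

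Fibroblasts secrete most of the fibrous matrix. Collagens I and III form the fibrils, and Col1a1 and Col1a2 encode the chains of type I while Col3a1 encodes type III. Decorin, biglycan and lumican are small leucine-rich proteoglycans, and decorin and lumican bind collagen fibrils and set their spacing, while fibronectin is the adhesive glycoprotein that links cells through integrins. Sparc is a collagen-binding glycoprotein, Mgp inhibits calcification, and vimentin is the intermediate filament protein of mesenchymal cells and of leukocytes. Decorin and biglycan also bind TGF-beta. Fn1, Sparc, Bgn and Vim are made by macrophages and other cells as well, so these genes do not mark fibroblasts alone.

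In the RefSeq gene order of the rat assembly GRCr8, Lum is the next gene after Dcn and Kera, another proteoglycan of the family, follows Lum, while Col5a2 is next to Col3a1. The RefSeq promoter table held 4 of the 10 genes. The 250 bases before the gene start are shown for Vim and Sparc, which varied with Dcn from rat to rat, and for Col1a2, whose correlation with Dcn was negative, so that the windows can be read beside these results. They are Vim at chr17:81577011-81577260 (plus strand), Sparc at chr10:40038817-40039066 (minus strand) and Col1a2 at chr4:33518307-33518556 (plus strand), each written 5′ to 3′ on the strand of its gene. Capitals mark matches, on either strand, to 3 core promoter motifs. The first is the TATA box, searched as TATAAA. Next comes the CCAAT box, which reads ATTGG on the other strand. The last is the GC box, searched as GGGCGG and matched here in reverse complement, and none of the matches shown overlapped another.
Vim: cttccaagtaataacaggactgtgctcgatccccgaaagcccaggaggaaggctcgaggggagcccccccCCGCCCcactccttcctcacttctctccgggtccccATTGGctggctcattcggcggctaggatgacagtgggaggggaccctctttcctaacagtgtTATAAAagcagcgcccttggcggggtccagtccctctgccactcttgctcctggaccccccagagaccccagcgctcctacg
Sparc: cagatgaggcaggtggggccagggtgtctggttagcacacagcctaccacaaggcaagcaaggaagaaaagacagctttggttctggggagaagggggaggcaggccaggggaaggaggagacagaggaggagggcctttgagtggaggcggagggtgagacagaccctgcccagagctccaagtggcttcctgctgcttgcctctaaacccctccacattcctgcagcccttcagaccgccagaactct
Col1a2: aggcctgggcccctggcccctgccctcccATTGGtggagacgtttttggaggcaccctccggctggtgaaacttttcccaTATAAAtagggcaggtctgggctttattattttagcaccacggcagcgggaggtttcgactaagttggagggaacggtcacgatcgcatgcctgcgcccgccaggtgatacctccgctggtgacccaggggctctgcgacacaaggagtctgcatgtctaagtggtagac
The Vim window held 1 match to each motif, the first base of its TATA box lying 82 bases before the gene start. The Col1a2 window held a TATA box, 170 bases before the start, and a CCAAT box, and the Sparc window held none of the 3 motifs. Of 33469 windows of the same length in the table, 12.9% held a TATA box, 34.0% a CCAAT box and 30.5% a GC box. A match is a description of letters and not a site.

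**Figure D1:**
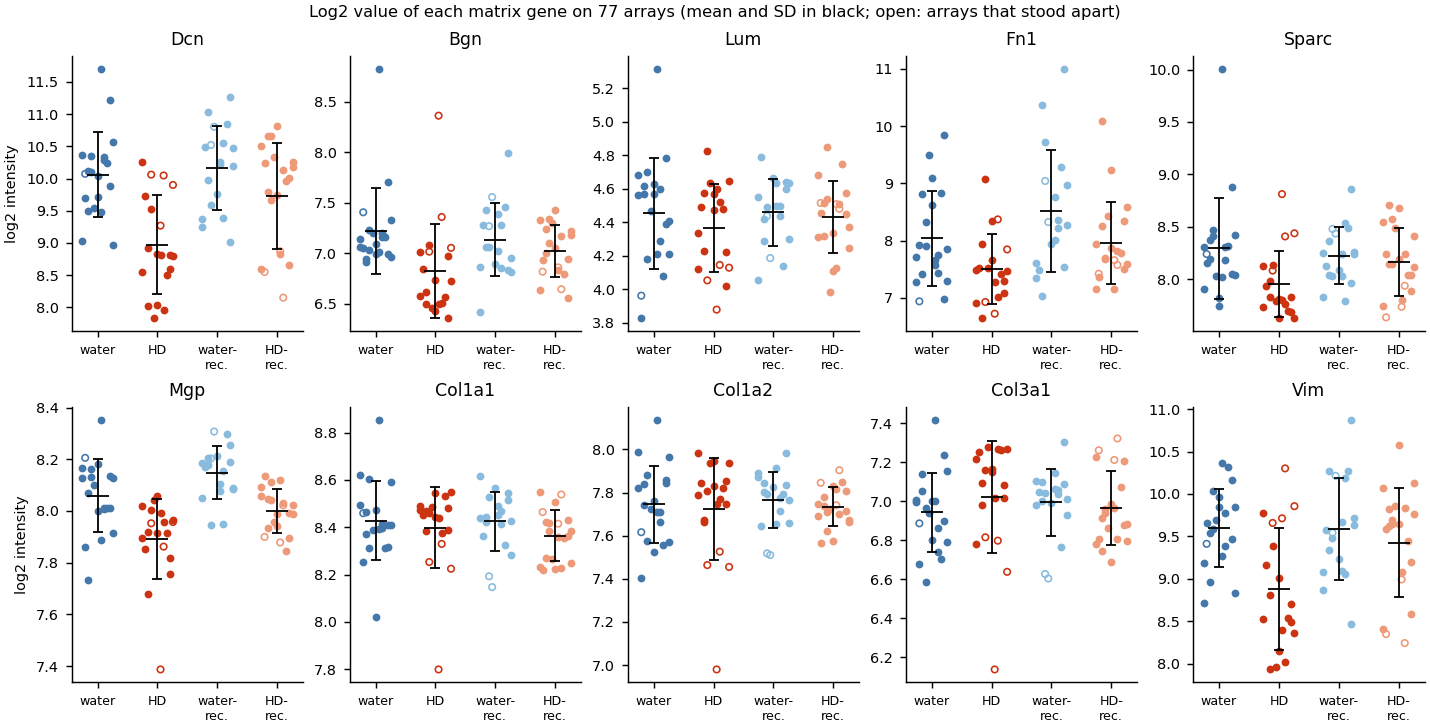
Log2 intensity of the 10 matrix genes (vertical axes, each with its own scale) on the 77 arrays by group, 1 point per array, open where the array stood apart, and black bars for each group's mean and SD. For Dcn the HD mean is 8.97 against 10.06 in water and for Vim 8.88 against 9.60, while the group means of Col1a1, Col1a2 and Lum differ by less than 0.10.

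At the end of exposure, Dcn was the only member called. Dcn was 2.13-fold lower in arrays labelled HD than in arrays labelled water, and Vim, Fn1, Bgn, Sparc and Mgp also had lower means there without passing the test. The 3 collagen genes and Lum lay within 0.09 of the controls. Of the 10 genes 1 was called (10%), read against 0.472% of all probe sets, and 9 had a lower mean. The called gene, Dcn, was one the study had already picked from these arrays. The median log2 difference of the 10 was −0.25, and over all probe sets it was 0.01. With no adjustment, p was under 0.05 for 6 of the 10, all with a lower mean, against 8.30% of all probe sets.

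Among the proteoglycans, the log2 value of Dcn in the 19 arrays labelled HD was lowest at 7.83, had a median of 8.82 and was highest at 10.26. In the 20 arrays labelled water the lowest was 8.97, the median 10.09 and the highest 11.71. Of the 19 HD arrays 18 were under the water median and 12 under the lowest water array, while 7 water arrays were over the highest HD array, and the groups overlapped. The means were 8.97 ± 0.77 (SD, n = 19) and 10.06 ± 0.65 (SD, n = 20), a log2 difference of −1.09 (SE 0.22, 95% interval −1.53 to −0.65, q = 0.00917 from limma). The p-value ranked within the lowest 0.11% of the array. Leaving out each of the 39 arrays in turn gave −1.16 to −1.003, and Dcn was called in all 39 fits.

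The replicate numbers fall into 1 to 10 and 11 to 20, and the labels do not say whether these are batches. Within numbers 1 to 10 the log2 difference of Dcn was −1.56 (SE 0.30, q = 0.0369 from limma), and within 11 to 20 it was −0.62 (SE 0.24, p = 0.0174, q = 1.00 from limma, n = 10 and 10). The difference between these values was −0.94 (SE 0.40, p = 0.0248, q = 1.00 from limma). The water means were 10.47 and 9.66 in the 2 sets and the HD means 8.90 and 9.04, so the spread between sets lay mainly in the water arrays.

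Markers of leukocytes also had lower means in arrays labelled HD. The mean log2 value of 28 leukocyte markers ranged from 7.12 to 7.96 in HD arrays (mean 7.37) and from 7.25 to 8.03 in water arrays (mean 7.66). Of the 28, 5 were called lower and none higher, namely Cx3cr1, Ccr2, Cd4, Lyz2 and Fcer1g, against 0.472% of all probe sets called. A lower mean was found for 25, with a median log2 difference of −0.25 against 0.01 over all probe sets. Lyz2 is one of the study's candidates named above, with the opposite direction on the study's arrays. The mean of 5 erythroid markers was 7.15 in HD arrays (6.74 to 7.77) and 7.51 in water arrays (7.00 to 7.93), and Ahsp, a haemoglobin chaperone, was the 1 of the 5 called, with a log2 difference of −0.25. Of the 138 probe sets called over the whole array, 133 were likewise lower. With the leukocyte mean of each array as a covariate the Dcn difference was −0.40 (SE 0.18, p = 0.0323, q = 0.153 from limma), and the call was lost. The part of blood cells in the Dcn difference was not tested otherwise, and the covariate itself differed between the groups.

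Bgn, the proteoglycan most like decorin in sequence, had a lowest, median and highest log2 value of 6.36, 6.73 and 8.36 in HD arrays and of 6.91, 7.12 and 8.83 in water arrays. Here 12 of 19 HD arrays lay below the lowest water array, but the array labelled HD replicate 5 reached 8.36, above the next highest HD array at 7.36. The log2 difference was −0.40 (SE 0.14, q = 0.248). Without HD replicate 5 it was −0.48 and was called (q = 0.0193), and without any of the other 38 arrays it was not. Lum, which binds the same fibrils, had a log2 difference of −0.09 (SE 0.09, 95% interval −0.28 to 0.10), with 12 of 19 HD arrays below the water median. Its group means ran from 4.36 to 4.46. Lum was among the dim probe sets, whose mean intensity lay under the median of all, and 1 alternative setting left it out. A flat value of so dim a probe set does not show that the transcript was unchanged.

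Among the glycoproteins, Fn1 varied most. Its lowest, median and highest log2 values were 6.64, 7.47 and 9.07 in HD arrays and 6.94, 7.81 and 9.85 in water arrays, so the groups overlapped over most of their range. The log2 difference was −0.54 (SE 0.22, 95% interval −0.99 to −0.09, q = 0.439). Sparc had 7.62, 7.83 and 8.81 in HD arrays and 7.74, 8.22 and 10.01 in water arrays, with 16 of 19 HD arrays below the water median. Its log2 difference was −0.34 (SE 0.13, q = 0.310).

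Mgp, which keeps soft tissue free of mineral, had a small but even shift. Its lowest, median and highest log2 values were 7.39, 7.92 and 8.06 in HD arrays and 7.73, 8.09 and 8.35 in water arrays. All 19 HD arrays lay below the water median and 11 of 20 water arrays lay above the highest HD array. The log2 difference was −0.17 (SE 0.05, 95% interval −0.27 to −0.07), or 1.12-fold, with p = 0.00164 and q = 0.130 from limma, so Mgp was not called. With all 4 groups in 1 fit it was (q = 0.0277), 1 of the 4 among 14 alternative settings that called it. Of the 39 fits that left out 1 array, 0 called Mgp.

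The fibrillar collagens had differences near 0. The log2 differences were −0.03 for Col1a1 (SE 0.06, 95% interval −0.14 to 0.08), −0.02 for Col1a2 (SE 0.07, −0.16 to 0.11) and 0.08 for Col3a1 (SE 0.08, −0.08 to 0.23). All 3 intervals include 0 and are narrower than that of Dcn. In each of the 3 genes HD replicate 5 was the lowest array of its group and water replicate 5 the highest.

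Vim, the cytoskeletal member, had a lowest, median and highest log2 value of 7.93, 8.71 and 10.30 in HD arrays and of 8.71, 9.62 and 10.36 in water arrays. In 10 of 19 HD arrays the value was below the lowest water array, and HD replicate 14 at 10.30 was as high as the upper water arrays. The means were 8.88 ± 0.72 (SD, n = 19) and 9.60 ± 0.46 (SD, n = 20), a log2 difference of −0.72 (SE 0.18, 95% interval −1.09 to −0.35). With q = 0.0593 from limma, Vim lay just outside the call, and it was called in 7 of the 39 fits that left out 1 array. Without HD replicate 14 the log2 difference was −0.80 (q = 0.00848).

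The arrays that stood apart held some of the highest Dcn and Vim values of the HD group. Without the 10 arrays that stood apart, 7 of the 10 genes were called between HD and water. Dcn had a log2 difference of −1.31 (q = 0.000153), Vim −0.997, Fn1 −0.59, Bgn −0.55, Sparc −0.47 and Mgp −0.13, while Col3a1 had 0.19 (q = 0.0159), the 1 of these with a higher mean in HD arrays. This setting called 8818 probe sets over the whole array (30.2%), against 138 with all arrays.

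**Figure D2:**
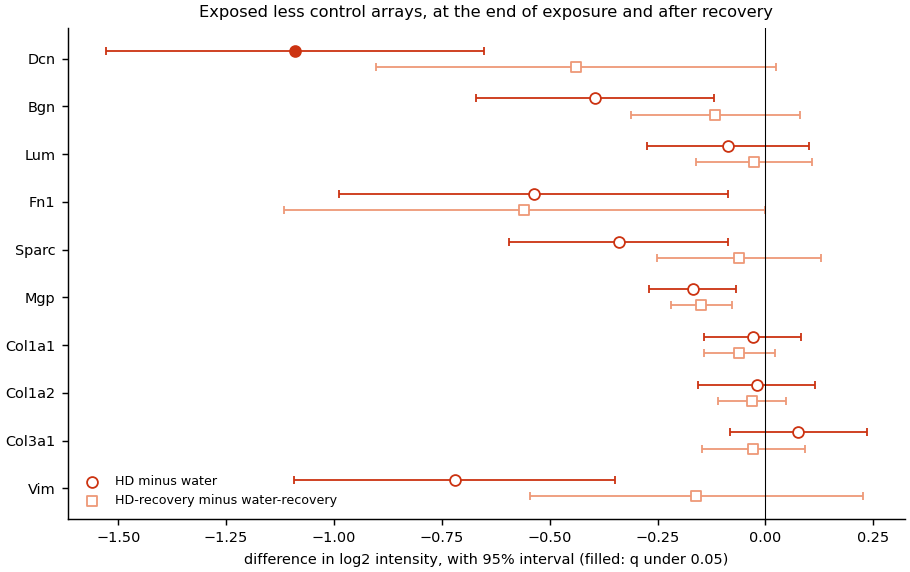
Difference in log2 intensity (horizontal axis) between exposed and control arrays for each gene, at the end of exposure (circles) and after recovery (squares), with 95% intervals, filled where q was under 0.05. Only Dcn at the end of exposure, at −1.09, is filled, and the intervals of Col1a1, Col1a2, Col3a1 and Lum include 0 in both comparisons.

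The rest of the matrix was read from lists of genes by role. No gene was called among 8 other collagens, whose median log2 difference was −0.01 and whose range was −0.04 to 0.01, and Col5a3 and Col12a1 had the smallest p (log2 differences −0.04 and −0.03, q = 0.977 for Col5a3). None of 8 other small leucine-rich proteoglycans was called (median −0.06). Ogn (osteoglycin) had −0.43 (SE 0.14, p = 0.00440, q = 0.213), and Epyc and Kera, both in the gene cluster of Dcn and Lum, had 0.17 and 0.13. Thus 4 neighbouring genes, Dcn, Lum, Kera and Epyc, had log2 differences of −1.09, −0.09, 0.13 and 0.17 on the same arrays, the probe set of Lum being dim.

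None of 22 other glycoproteins and elastic fibre genes was called (median −0.02). The 2 with the smallest p were Mfap4, a microfibril protein, with −0.17 (SE 0.05, q = 0.171), and Dpt (dermatopontin, which binds decorin) with −0.24 (SE 0.08, q = 0.198). Of 5 basement membrane genes none was called (median 0.01), Lamc1, a laminin chain, having 0.12 (q = 0.492) and Agrn (agrin) −0.04. Among 23 enzymes of matrix synthesis and turnover none was called (median −0.01), Tgm2, a transglutaminase that crosslinks matrix proteins, having 0.27 (q = 0.333) and Mmp9, a gelatinase of neutrophils and macrophages, −0.16 (q = 0.555). The structural and enzymatic lists held no called gene, and their medians lay within 0.06 of 0. With 0.472% of all probe sets called, lists of 5 to 23 genes can hold none without differing from the rest of the array.

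Of 12 matrix receptors none was called (median 0.00). Cd44, the hyaluronan receptor, had −0.24 (SE 0.07, q = 0.0929) and Itgb1, the beta chain of most collagen and fibronectin receptors, −0.21 (q = 0.494). Of 11 TGF-beta pathway genes none was called (median −0.05), Smad2 having −0.21 (SE 0.06, q = 0.119) and Tgfb1, the ligand itself, −0.27 (SE 0.08, q = 0.122). Of 10 other intermediate filament genes none was called (median −0.02), and Krt19, a keratin of epithelia, had 0.38 (SE 0.10, q = 0.0638), opposite in sign to Vim, and Gfap −0.10.

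Fibroblast markers did not move together. Of 14 fibroblast identity genes 7 had a higher and 7 a lower mean in HD arrays, with a median log2 difference of −0.01. C3, a complement protein also made by macrophages, was the 1 of the 14 that was called (log2 difference −0.35, SE 0.07, q = 0.00684). Pdgfra, a receptor that defines fibroblasts, had −0.03 (SE 0.06). The list mean ranged from 6.35 to 6.87 in HD arrays and from 6.66 to 7.05 in water arrays. Of 13 smooth muscle and endothelial markers and of 20 markers of epididymal epithelium none was called (medians −0.02 and −0.03; Acta2 had −0.12, Cldn3 −0.17 and Cst8 0.38), and of 21 sperm and spermatid markers Odf1 was the 1 called (−0.22, median of the list 0.12). The sperm list ran from −0.58 to 0.83. Unadjusted p from limma was under 0.05 for 12 of the 21, of which 6 were lower, against 8.30% of all probe sets. Of 10 Sertoli cell markers Clu was the 1 called (1.11, median of the list 0.03), and Clu is one of the candidates named above whose direction in the study is the opposite. The single calls of C3, Odf1 and Clu are read against 0.472% of all probe sets called.

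After recovery no member was called between arrays labelled HD-recovery and water-recovery, where 0% of all probe sets were called by limma with q-values and none with Benjamini-Hochberg adjustment. With no adjustment, p was under 0.05 for 2 of the 10, Mgp and Fn1, against 4.51% of all probe sets. The mean of each of the 10 genes was lower in HD-recovery arrays, with a median log2 difference of −0.09 against −0.01 over all probe sets.

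The log2 value of Dcn had a lowest, median and highest value of 8.15, 9.99 and 10.82 in the 20 HD-recovery arrays and of 9.02, 10.24 and 11.27 in the 18 water-recovery arrays. The HD-recovery arrays lay in part among the controls, with 13 of 20 below the water-recovery median and 6 below the lowest water-recovery array. The means were 9.73 ± 0.82 (SD, n = 20) and 10.17 ± 0.65 (SD, n = 18), a log2 difference of −0.44 (SE 0.23, 95% interval −0.90 to 0.03, p = 0.0634, q = 1.00 from limma). It was −0.70 within replicate numbers 1 to 10 and −0.18 within 11 to 20. Vim had 8.24, 9.63 and 10.58 in HD-recovery arrays and 8.47, 9.56 and 10.88 in water-recovery arrays, a log2 difference of −0.16 (SE 0.19). The leukocyte mean was 7.63 and 7.71 in the 2 groups, and none of the 28 leukocyte markers was called.

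Mgp had the smallest p of the whole array in this comparison. Its lowest, median and highest log2 values were 7.84, 8.01 and 8.13 in HD-recovery arrays and 7.94, 8.17 and 8.31 in water-recovery arrays. All 20 HD-recovery arrays lay below the water-recovery median, and 11 of 18 water-recovery arrays lay above the highest HD-recovery array. The log2 difference was −0.15 (SE 0.03, 95% interval −0.22 to −0.08, p = 0.000116), close to the −0.17 at the end of exposure, but with q = 0.720 from limma Mgp was not called. In limma fits with array weights (q = 0.0327), with a covariate for the first principal component (q = 0.0274), without the 10 arrays set apart above (q = 0.0178) or with the leukocyte mean as a covariate (−0.14, q = 0.0345), Mgp was called. These settings called 1.80%, 0.161%, 13.1% and 0.822% of all probe sets. They were 4 of 13 alternative settings, and in the others Mgp was not called. Of the 38 fits that left out 1 array, 0 called Mgp.

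Fn1 had a log2 difference of −0.56 (SE 0.28, p = 0.0496, q = 1.00 from limma) after recovery, near its −0.54 at the end of exposure. Its lowest, median and highest values were 7.15, 7.74 and 10.08 in HD-recovery arrays and 7.04, 8.30 and 11.00 in water-recovery arrays. The ranges overlapped almost wholly, and the upper ends came from HD-recovery replicate 17 and water-recovery replicate 20. The other 6 members had log2 differences between −0.12 (Bgn) and −0.03 (Lum).

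In the lists by role no gene was called after recovery. The medians of the 8 other collagens and the 8 other proteoglycans were −0.05 and −0.06, and all 16 genes had a lower mean in HD-recovery arrays. Ogn had −0.22 (p = 0.0303), Col8a1, a short-chain collagen of vessels, −0.13 (p = 0.0328), and Timp2 and Timp1, inhibitors of matrix metalloproteinases, −0.25 and −0.13, each with q = 1.00 from limma.

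Whether the exposure difference itself differed between the end of exposure and recovery was tested in a fit over the 4 groups. No member was called, and 0% of all probe sets were. Unadjusted, p was under 0.05 for 2 of the 10, against 3.38% of all probe sets: Dcn with a difference of differences of −0.65 (SE 0.32, p = 0.0475) and Vim with −0.56 (SE 0.27, p = 0.0427), both with q = 1.00 from limma. Mgp and Fn1 had −0.02 (SE 0.06) and 0.02 (SE 0.36). The interval of Fn1 ran from −0.70 to 0.75 on the log2 scale, the widest among the 10.

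Over the recovery period in exposed rats, HD-recovery less HD, 0.0308% of all probe sets were called, all higher in HD-recovery, and no member was among them. Unadjusted, p was under 0.05 for 5 of the 10 genes, all with a higher mean in HD-recovery, against 7.55% of all probe sets. Dcn had a log2 difference of 0.76 (SE 0.24, 95% interval 0.27 to 1.25, q = 0.307), Vim 0.55 (SE 0.21, q = 0.465), Fn1 0.46 (SE 0.20, q = 0.596), Sparc 0.21 (SE 0.10, q = 0.627) and Mgp 0.11 (SE 0.04, q = 0.510). In 16 of 20 HD-recovery arrays Dcn lay above the HD median. In water rats over the same time, water-recovery less water, 0% of all probe sets were called and no member was. Mgp was the 1 member with an unadjusted p under 0.05 (0.09, SE 0.04, p = 0.0469), against 6.52% of all probe sets, Fn1 had 0.48 (SE 0.29) and Dcn 0.11 (SE 0.20).

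These comparisons over time depended on the replicate numbers. In the HD-recovery group the Dcn mean was 9.21 ± 0.72 (SD, n = 10) in numbers 1 to 10 and 10.25 ± 0.55 (SD, n = 10) in numbers 11 to 20, in the water-recovery group 9.91 ± 0.52 (SD, n = 9) and 10.43 ± 0.70 (SD, n = 9), and in the water group the order was the opposite, with 10.47 ± 0.59 and 9.66 ± 0.44 (SD, n = 10 each). Water-recovery less water was thus −0.56 in Dcn within numbers 1 to 10 (p = 0.0229, q = 0.0346 from limma) and 0.77 within 11 to 20 (q = 0.448). The difference between these sets was −1.32 (SE 0.35, p = 0.00048, q = 0.00616 from limma). HD-recovery less HD was 0.31 within 1 to 10 (q = 0.345) and 1.21 within 11 to 20 (q = 0.00335). Here the difference between sets was −0.90 (SE 0.44, p = 0.0449, q = 0.0381 from limma). Of all probe sets, 33.0% were called for water-recovery less water within 1 to 10 and 30.2% for HD-recovery less HD within 11 to 20. In the comparison of water-recovery with water 9905 probe sets differed between sets by this test, and in that of HD-recovery with HD 12730. These calls and counts depend on the share of unchanged probe sets that the q-value method estimates. That estimate was low enough for a q to fall below its own p, as for the −0.90. The leukocyte means followed the same order, at 7.76 and 7.55 in water arrays and 7.56 and 7.87 in water-recovery arrays.

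**Figure D3:**
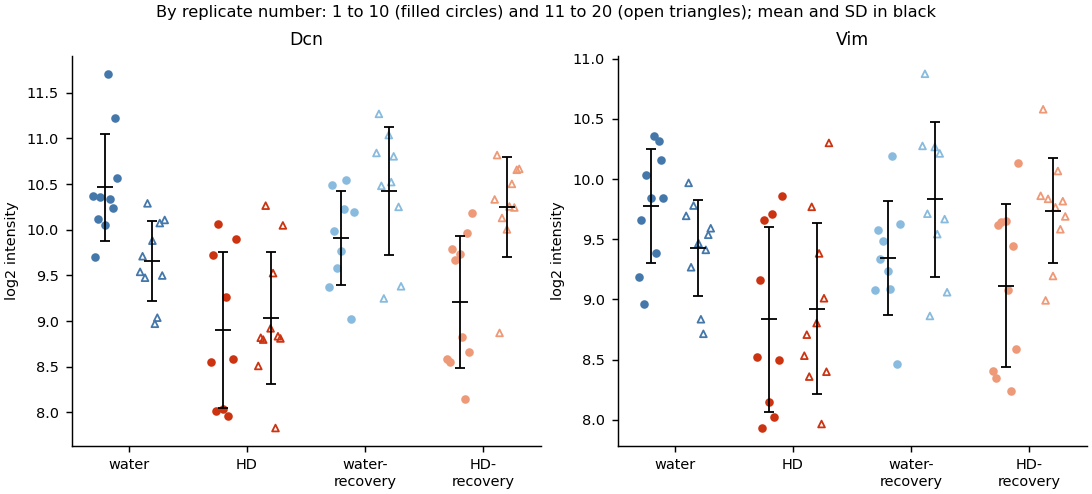
Log2 intensity of Dcn and Vim (vertical axes) by group, with replicate numbers 1 to 10 as filled circles and 11 to 20 as open triangles, and the mean and SD of each set in black. For Dcn the water means are 10.47 and 9.66 and the HD-recovery means 9.21 and 10.25, so the sets run in opposite order in these groups, while the HD means of 8.90 and 9.04 are close.

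In the order of group means of Dcn, HD (8.97) was followed by HD-recovery (9.73), water (10.06) and water-recovery (10.17), and no pair of neighbours in this order differed at q under 0.05 in the fit over the 4 groups. The step from HD to HD-recovery was 0.76 (SE 0.23, q = 0.148), from HD-recovery to water 0.33 (SE 0.22) and from water to water-recovery 0.11 (SE 0.23). HD had the lowest mean also for Vim, Fn1, Mgp, Sparc, Bgn, Lum and Col1a2, HD-recovery for Col1a1 and water for Col3a1. No neighbours in any of these orders differed at q under 0.05.

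The members varied unequally from rat to rat. The SD within groups was 0.82 for Fn1, 0.73 for Dcn and 0.61 for Vim, larger than for 99.9%, 99.7% and 98.8% of all probe sets. It was 0.38 for Bgn and 0.36 for Sparc, and 0.12 for Mgp, larger than for 2.91% of all probe sets. For Col1a1, Col1a2 and Col3a1 it was 0.15, 0.17 and 0.22. Single arrays set many of the extremes: water replicate 5 was the highest of its group for 9 of the 10 genes, all but Fn1, and water-recovery replicate 20 for Dcn, Bgn, Fn1, Sparc and Vim. HD replicate 5, which stood apart, was the lowest of its group for Lum, Mgp and the 3 collagens and the highest for Bgn and Sparc.

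Within groups Dcn varied together with Vim, Sparc and Bgn and opposite to Col3a1. After the group means were removed, Pearson's r with Dcn over the 77 arrays was 0.88 for Vim (Spearman's coefficient 0.87), 0.77 for Sparc (Spearman 0.85) and 0.72 for Bgn (Spearman 0.83). For each of these 3 the two-sided permutation p, shuffled within groups, was 1e-05, the smallest that 100000 draws can give, and 2.29e-05 for r after Benjamini-Hochberg adjustment over the 16 relations of this family. The shuffle treats the arrays of a group as exchangeable, though values also differed by replicate number. The share of all probe sets with such an r is not given here, so these p-values do not show a relation particular to these genes. Leaving out the 2 arrays farthest out in the other gene gave 0.87, 0.81 and 0.81, the 67 arrays that did not stand apart gave 0.85, 0.77 and 0.78, and removing the means of each set of replicate numbers in each group gave 0.87, 0.73 and 0.68. The relation to Vim was positive in each group, from 0.68 in water to 0.94 in HD.

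Fn1 had r = 0.39 with Dcn (Spearman 0.38, permutation p = 0.00036 and 0.0008, adjusted 0.00064 and 0.00107), but within the water group it was 0.00 and within water-recovery 0.64. Mgp had r = 0.27 (Spearman 0.27, permutation p = 0.0157 and 0.0177, adjusted 0.0193 and 0.0188) and −0.01 within HD. Lum, the next gene on the chromosome, had r = −0.01 (Spearman −0.09, permutation p = 0.916 and 0.425), but its probe set was dim.

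The collagens ran the other way. Col3a1 had r = −0.45 with Dcn (Spearman −0.54, permutation p = 9e-05 and 1e-05, adjusted 0.00018 and 2e-05), Col1a2 r = −0.31 (Spearman −0.40, permutation p = 0.00689 and 0.00026) and Col1a1 r = −0.27 (Spearman −0.43, permutation p = 0.0187 and 0.00015). Over the 67 arrays that did not stand apart these were −0.30, −0.13 and −0.09, and within the water group all 3 were above 0, at 0.07, 0.16 and 0.27, so the negative sign did not hold in every group. Among themselves the 3 collagens correlated at 0.78 to 0.83, and Sparc and Bgn at 0.85. Over the other 67 arrays, none of which stood apart, the collagen pairs had 0.61 to 0.72 and Sparc with Bgn 0.85. The first principal component of all probe sets held 41.9% of the variance within groups, and the size of its correlation with a gene was 0.87 for Col3a1, 0.80 for Col1a2, 0.76 for Vim, 0.73 for Col1a1, 0.68 for Dcn and 0.09 for Mgp.

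**Figure D4:**
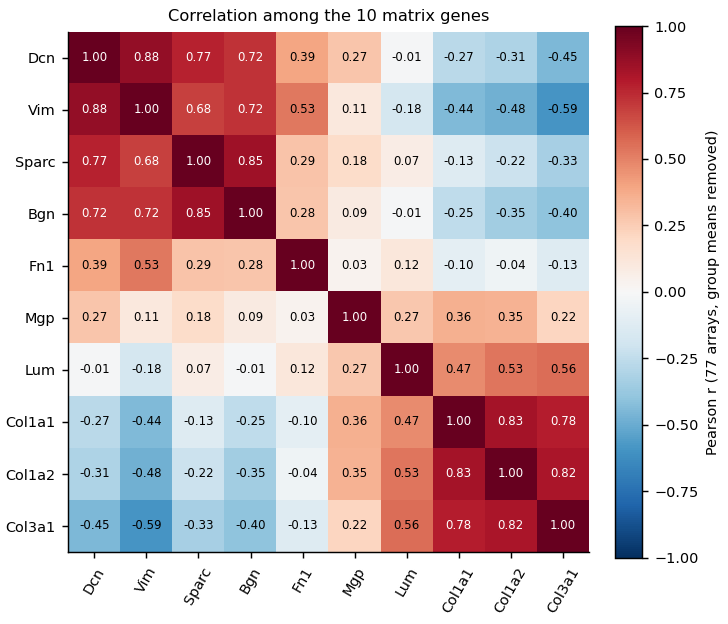
Pearson correlation (colour and number) between each pair of the 10 genes over 77 arrays after group means were removed. Dcn, Vim, Sparc and Bgn form 1 block with r from 0.68 to 0.88, and Col1a1, Col1a2 and Col3a1 another with r from 0.78 to 0.83.

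Dcn also varied with markers of other cells. With the leukocyte mean r was 0.82 (Spearman 0.84, permutation p = 1e-05 for both), from 0.59 in water to 0.90 in water-recovery, and 0.78 over the 67 arrays that did not stand apart. With the erythroid mean it was 0.67 (Spearman 0.69) and with the mean of the epididymal epithelium markers 0.57 (Spearman 0.64), both at a permutation p of 1e-05. With the fibroblast identity mean r was −0.20 (Spearman −0.32, permutation p = 0.0912 and 0.00493, adjusted 0.0973 and 0.00563), but 0.07 over the 67 arrays that did not stand apart and 0.24 within water. It was −0.52 with the smooth muscle and endothelium mean (Spearman −0.56, permutation p = 1e-05), with the Sertoli mean −0.29 (Spearman −0.41, permutation p = 0.011 and 0.00031) and with the sperm mean 0.28 (Spearman 0.33, permutation p = 0.0154 and 0.00342). The Sertoli r was 0.04 within HD and −0.10 within water. It was −0.16 with the means of each set of replicate numbers removed, but −0.39 over the 67 arrays that did not stand apart. Over those arrays the sperm r was 0.09, and it was −0.02 within water but 0.66 within HD-recovery. Dcn, by function a fibroblast product, thus had a high r with leukocyte markers and none of settled sign with fibroblast identity markers, and the part of leukocytes in its variation was not tested. These means share the arrays and their scaling with Dcn.

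**Figure D5:**
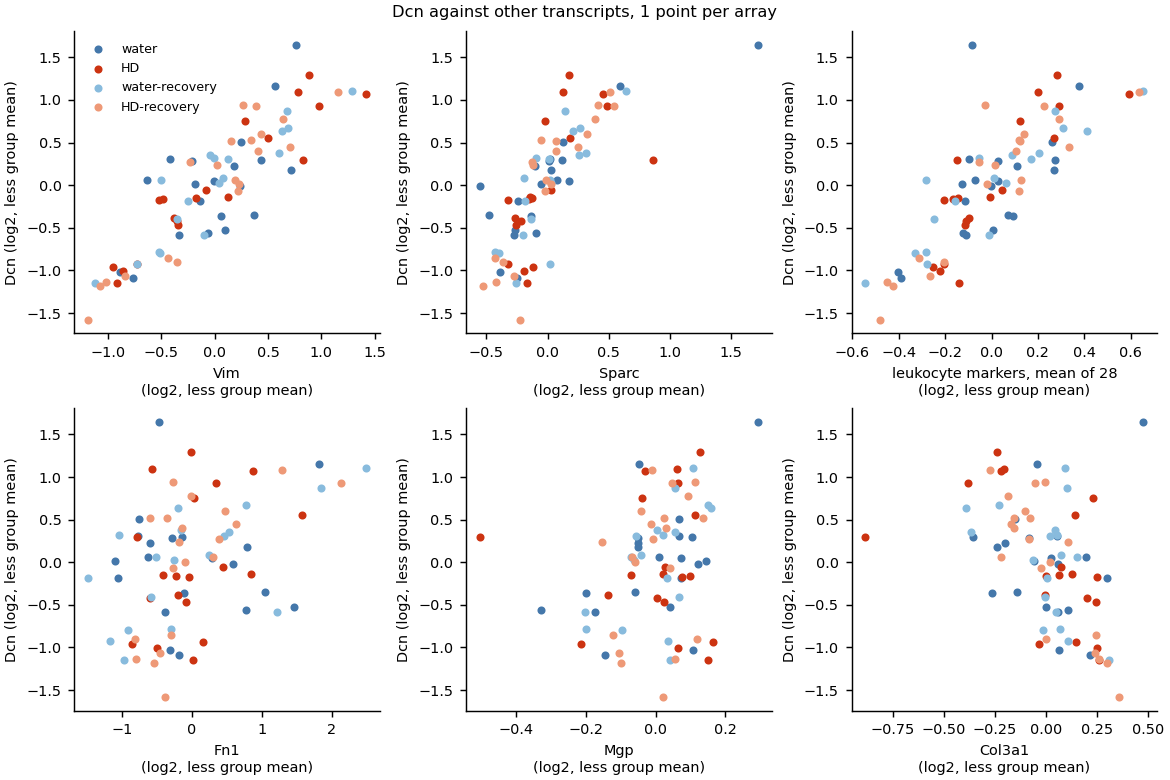
Dcn (vertical axis) against Vim, Sparc, the mean of 28 leukocyte markers, Fn1, Mgp and Col3a1 (horizontal axes), all in log2 less the group mean, 1 point per array and coloured by group. Points rise together for Vim (r = 0.88), Sparc (0.77) and the leukocyte mean (0.82), scatter for Fn1 (0.39) and Mgp (0.27), and fall for Col3a1 (−0.45).

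The probe sets most like Dcn over the 77 arrays, among those with 1 symbol outside the 10 genes, were Txnip, a redox regulator induced by glucose, with r = 0.87, and Ctsb, a lysosomal protease, with 0.87. Laptm5, a lysosomal protein of haematopoietic cells, and Cd48, a surface protein of leukocytes, had 0.85 each. B2m, the light chain of MHC class I, Cst3 (cystatin C), Arhgdib and Zfp36l1, an RNA-binding protein, had 0.84 to 0.85. None of the 8 was called between HD and water, their log2 differences running from −0.64 (Arhgdib) to −0.39 (Txnip), with q from 0.0858 to 0.616. Over the 67 arrays that did not stand apart their r with Dcn lay between 0.79 and 0.85.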

How the data were processed

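RNA of 77 rat sperm samples was hybridised to Affymetrix rat whole-transcript gene arrays. The authors deposited 1 table of normalized values for 29214 probe sets, and by their range (2.51 to 14.63) these were taken as log2 intensities. The steps of their normalization and the genome build are not stated in the sources used here, and the submitters' processing notes name limma. Arrays were grouped by their labels. Following the study's methods, each pair of groups was fitted by limma (version 3.58.1, R 4.3.3) over all probe sets, and Storey q-values were computed from the p-values, with a call at q under 0.05. Where few probe sets are estimated as unchanged, such a q can fall below its p. The 2 comparisons over time were fitted likewise, and the 4 groups together for the difference of differences. The scripts were tested on simulated data. An array stood apart where its median correlation with its group lay over 3 scaled median absolute deviations below the group's median.

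Members, lists and tests were chosen with earlier results of these data known. Named were all 10 members, the called genes of each list (otherwise up to 2 of smallest p) and the 8 probe sets most like Dcn; Kera and Pdgfra were named after their values were seen. Replicate numbers were not treated as pairs in the main fits, and the labels do not say whether they pair rats. The number of arrays limits the precision, and arrays give no counting depth.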

Additional observations from a re-analysis of the deposited data

How the results depend on the processing

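Dcn kept its negative difference between HD and water in 14 of 14 alternatives and its call in 12. It lost the call within replicate numbers 11 to 20 (−0.62) and with the leukocyte marker mean as a covariate (−0.40). The cause was not tested beyond these values. Of the 10 genes 1 was called in the main setting, read against 0.472% of all probe sets. With each setting's share of all probe sets called in brackets, 2 were after quantile normalization (1.20%), 6 when arrays were weighted (17.7%), 4 with a covariate for the first principal component (5.00%), 3 with all 4 groups in 1 fit (0.756%), 2 with dim probe sets left out (1.52%), 7 without the arrays that stood apart (30.2%), 0 within replicate numbers 11 to 20 (0%), 0 with the leukocyte covariate (2.66%) and 4 without both arrays numbered 5 (1.28%, chosen after seeing the data). Leaving out 1 array at a time gave 1 to 3. After recovery 0 were called, but 1 with array weights (1.80%), 1 with the principal component (0.161%), 3 without the arrays that stood apart (13.1%) and 1 with the leukocyte covariate (0.822%). For HD-recovery less HD the count of 0 became 9 with array weights (44.5%), 3 with the principal component (3.09%), 9 without the arrays that stood apart (57.9%) and 6 within numbers 11 to 20 (30.2%). For water-recovery less water it became 2 within numbers 1 to 10 (33.0%), and for the difference of differences 6 with array weights (33.7%) and 7 without the arrays that stood apart (56.8%). Col1a2 in HD-recovery less HD changed from 0.01 to −0.076 when arrays were weighted and −0.10 when those standing apart were left out, and Dcn in water-recovery less water from 0.11 to −0.56 within numbers 1 to 10. The test of whether differences varied between the sets of numbers was also chosen after seeing the data.

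With the replicate number as a block, 4 of the 10 genes were called between HD and water (Dcn −1.09, Vim −0.75, Bgn −0.41 and Sparc −0.34), and 156 probe sets over the array against 138. The numbers share no stated animal, litter or day: of 19 pairs of HD and water arrays with the same number 8 had a correlation of deviations over 0.1 (median 0.03), and 2 correlated best with their own number. Of 18 such pairs of HD-recovery and water-recovery arrays 8 were over 0.1 (median 0.04, highest 0.64), and 4 correlated best with their own number. Whether the numbers pair rats was not settled by these values. The block changed no other count of called members. Each gene had 1 probe set, so averaging over probe sets was not run.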
